A study of Mus musculus with 6 samples.

Results

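A set of 45 genes of the lysosome and of autophagy was followed between a posterior and an anterior mouse cell line, which the labels name as limb lines. They were chosen by name, and every probe whose platform symbol is one of these genes was taken. Of the 45 genes, 42 had a named probe and were tested, through 70 probes, among 9908 tested genes and 18242 tested probes in all. Gla, Tfeb and Gabarapl2 had no named probe and were not analysed here. The labels describe the posterior group as 3 arrays of RNA from an immortalized cell line of posterior limb mesenchyme. The anterior group is given as 3 arrays from an anterior one. Pluripotency genes, given below, go against the name limb mesenchyme. Per the labels, the lines come from mouse embryos at E10.5, and cells of both carry SV40 T antigen in a temperature-sensitive form, a viral protein that keeps cells dividing. The labels used here do not name the strain, the growth temperature or whether a line is 1 clone. Nor do they tell if replicates were grown apart, and each p-value therefore rests on a spread that may be technical.

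Lysosomes are acidic compartments in which hydrolases break down proteins, sugars and lipids, behind a membrane of heavily glycosylated proteins such as those encoded by Lamp1 and Lamp2. A proton pump, the vacuolar ATPase, acidifies them, and its membrane sector, V0, carries the protons while its cytosolic sector, V1, splits ATP. In autophagy a membrane closes around part of the cytoplasm and fuses with the lysosome. A kinase complex with ULK1 starts it, conjugation enzymes attach LC3 and GABARAP proteins to the membrane, and receptors such as p62, encoded by Sqstm1, hold the cargo. The transcription factor TFEB is known to bind E-box elements near many of these genes.

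Lysosome and autophagy genes differed between the lines one by one and not as a block. With limma and an adjusted p under 0.05 over all tested probes, 12 of the 42 genes were higher in posterior, 8 were lower and 22 did not pass. The 12 were Ctsh, Lamp2, Naglu, Lipa, Gabarapl1, Gusb, Map1lc3a, Ctsb, Gabarap, Psap, Neu1 and Wipi1, and the 8 were Ctsa, Glb1, Ulk1, Hexa, Atp6v1a, Scarb2, Grn and Mcoln1. The share past the threshold was 47.6%, against 47.4% of all tested genes. By direction, 28.6% were higher and 19.0% lower, against 25.9% and 21.5% of all tested genes. Of the 42, 8 (19.0%) passed with a change of at least 2-fold, against 19.5% of all. The median log2 difference, posterior minus anterior, was 0.06 over the 42 genes and 0.03 over all. These shares lie near the background, so the number of calls says nothing particular about the list, and the results are those of its single genes. With arrays scaled to a common median, 8 genes were higher and 4 lower, and the median of all genes moved by 0.17 on the log2 scale. The plot of differences by gene shows both directions within the hydrolases, the membrane proteins and the autophagy genes.

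**Figure D1:**
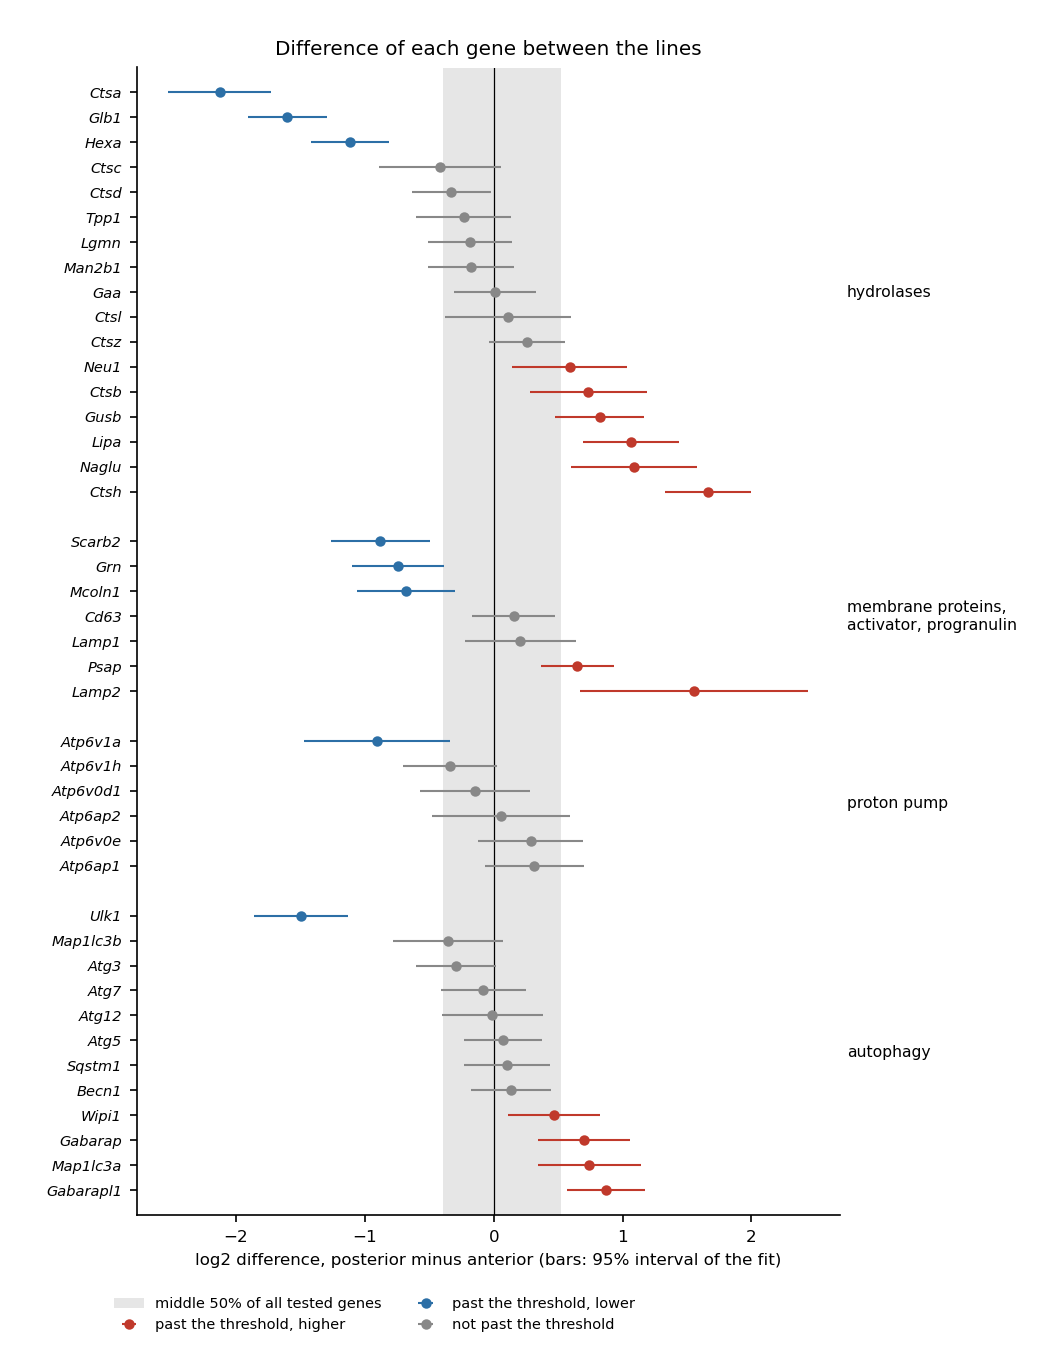
Log2 difference, posterior minus anterior, of each of the 42 tested genes by role, with the 95% interval of the limma fit as a bar; red and blue mark genes past the threshold as higher and lower, grey those that did not pass, and the shaded band is the middle 50% of all tested genes. Ctsa lies lowest at -2.13 and Ctsh highest at 1.66, and each role but the proton pump holds genes of both colours.

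The arrays had 17784 to 18657 detected probes in posterior and 16052 to 17705 in anterior, a probe being detected where its detection p-value was under 0.05. Across tested probes the correlation between arrays was 0.971 to 0.989 within a group and 0.882 to 0.905 between groups. The labels were set against marker genes. Of 10 limb mesenchyme genes 4 had a named probe. Twist1, Msx1 and Tbx4 were higher in posterior, and Pdgfra, which no anterior array detected, could enter the test only as higher. The summed linear signal of the 4 was 355 to 615 on posterior and 132 to 155 on anterior arrays. Of 10 genes listed as pluripotency markers of stem cells, 10 were tested and 9 were lower in posterior (Tdgf1, undetected there, entered the test through anterior arrays alone). The summed signal of the 10 was 16100 to 21400 on posterior and 46100 to 47700 on anterior arrays. Dppa5a, the brightest of them, had means of 13.60 in posterior and 14.36 in anterior. Others were dim in posterior, such as Pou5f1 with means of 6.82 in posterior and 11.62 in anterior, and Sox2 with 6.05 in posterior and 8.98 in anterior. All 10 were detected on every anterior array and 9 on every posterior array, which for the list as a whole goes against the label of limb mesenchyme. Sall4 is among these 9, with means of 11.44 in posterior and 11.77 in anterior, and did not pass. Whether limb mesenchyme also expresses some of the 10 was not tested. Among 11 visceral endoderm genes, a cell type with large lysosomes, 5 were tested. Lrp2 was higher, and Ttr, Sox17 and Gata6, which no anterior array detected, could enter only as higher (summed signal 848 to 1540 on posterior, 454 to 558 on anterior arrays). Amn, detected on every array, leaned the other way with a log2 difference of -0.19 and did not pass. Foxa2 had a named probe but fell below the detection filter. Of 16 macrophage symbols only Cd14 had a named probe, at 4.85 in posterior and 4.61 in anterior, near the detection limit and not past the threshold. For symbols of these lists without a named probe, a lack of detection and a lack of a probe with 1 symbol were not told apart. The part of such cell identities in the differences below was not tested. In RNA from whole cultures, fewer cells of a type and less RNA per cell cannot be told apart.

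Because TFEB binds E-boxes, the promoters of the genes were read for the palindrome TCACGTGA and for its core CACGTG, which every copy of the longer motif contains. Both read the same on either strand. RefSeq promoters of build GRCm38.p6, from 250 bases before the start of transcription to 50 after it, were found for 39 of the 45 genes and not for Ctsb, Ctsh, Atp6v1h, Map1lc3a, Becn1 and Atg12. The 8-base motif lay in a promoter of 8 of the 39 genes (20.5%), against 2.20% of the 8007 tested genes with a promoter in the table and 1.12% of all 27025 genes in it. The 6-base core lay in 16 of the 39 (41.0%), against 963 of the 8007 tested genes and 8.09% of all. The 8 genes were Ctsa, Ctsd, Gla, Mcoln1, Atp6v0d1, Atp6v0e, Atp6v1a and Atg3. Of the genes with a promoter, 3 of 8 that were lower in posterior, 0 of 9 that were higher and 4 of 19 that did not pass held it. The 6-base core lay in 4 of these 8, 1 of these 9 and 10 of these 19, against 12.0% of tested genes with a promoter. Whether matches go with direction was not tested. A match is a description of these letters and not evidence of binding.

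The 5 promoters below belong to the genes past the threshold that hold a match, of which Naglu alone was higher in posterior. They are printed 5′ to 3′ on the strand of the gene, with the matches in capitals.
Ctsa, lower in posterior, chr2:164833523-164833822, plus strand: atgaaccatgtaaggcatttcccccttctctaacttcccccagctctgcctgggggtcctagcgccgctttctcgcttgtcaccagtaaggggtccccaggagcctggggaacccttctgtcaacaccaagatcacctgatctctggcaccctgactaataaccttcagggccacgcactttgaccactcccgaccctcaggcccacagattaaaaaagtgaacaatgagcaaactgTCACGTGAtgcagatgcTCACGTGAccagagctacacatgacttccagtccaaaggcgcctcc
Mcoln1, lower in posterior, chr8:3500269-3500568, plus strand: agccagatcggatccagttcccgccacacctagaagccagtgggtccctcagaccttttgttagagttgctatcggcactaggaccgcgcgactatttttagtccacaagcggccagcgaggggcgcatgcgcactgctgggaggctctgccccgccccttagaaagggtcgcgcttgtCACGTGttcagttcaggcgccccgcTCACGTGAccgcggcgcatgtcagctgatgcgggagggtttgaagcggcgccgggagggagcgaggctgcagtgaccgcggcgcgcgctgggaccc
Atp6v1a, lower in posterior, chr16:44139210-44139509, minus strand: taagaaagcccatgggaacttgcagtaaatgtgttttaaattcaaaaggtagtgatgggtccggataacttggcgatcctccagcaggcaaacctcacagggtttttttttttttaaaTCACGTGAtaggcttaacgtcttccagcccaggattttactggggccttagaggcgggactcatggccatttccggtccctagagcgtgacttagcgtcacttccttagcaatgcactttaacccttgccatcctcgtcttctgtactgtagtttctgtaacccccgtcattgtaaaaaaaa
Glb1, lower in posterior, chr9:114400828-114401127, plus strand: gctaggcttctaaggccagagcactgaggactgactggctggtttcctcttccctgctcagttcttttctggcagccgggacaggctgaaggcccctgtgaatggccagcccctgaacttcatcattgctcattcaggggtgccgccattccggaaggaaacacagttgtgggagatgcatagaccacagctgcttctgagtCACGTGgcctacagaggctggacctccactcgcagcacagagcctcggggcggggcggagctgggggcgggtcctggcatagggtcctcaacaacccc
Naglu, higher in posterior, chr11:101069844-101070143, plus strand: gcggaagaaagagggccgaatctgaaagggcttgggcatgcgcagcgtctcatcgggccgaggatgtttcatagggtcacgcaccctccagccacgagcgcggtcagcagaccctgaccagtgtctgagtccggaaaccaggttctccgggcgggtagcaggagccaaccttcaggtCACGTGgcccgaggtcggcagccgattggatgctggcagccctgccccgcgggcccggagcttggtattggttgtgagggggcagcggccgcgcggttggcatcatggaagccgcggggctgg

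In Ctsa the 8-base motif occurs on each side of the start site, its first base 13 bases before and 4 bases after it. Ctsa has a further promoter in the table, which holds no match. In Mcoln1 a core lies 71 bases and the longer motif 46 bases before the start, and in Atp6v1a the longer motif lies 132 bases before it. Glb1 and Naglu hold the core alone, 48 and 73 bases before the start.

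**Figure D2:**
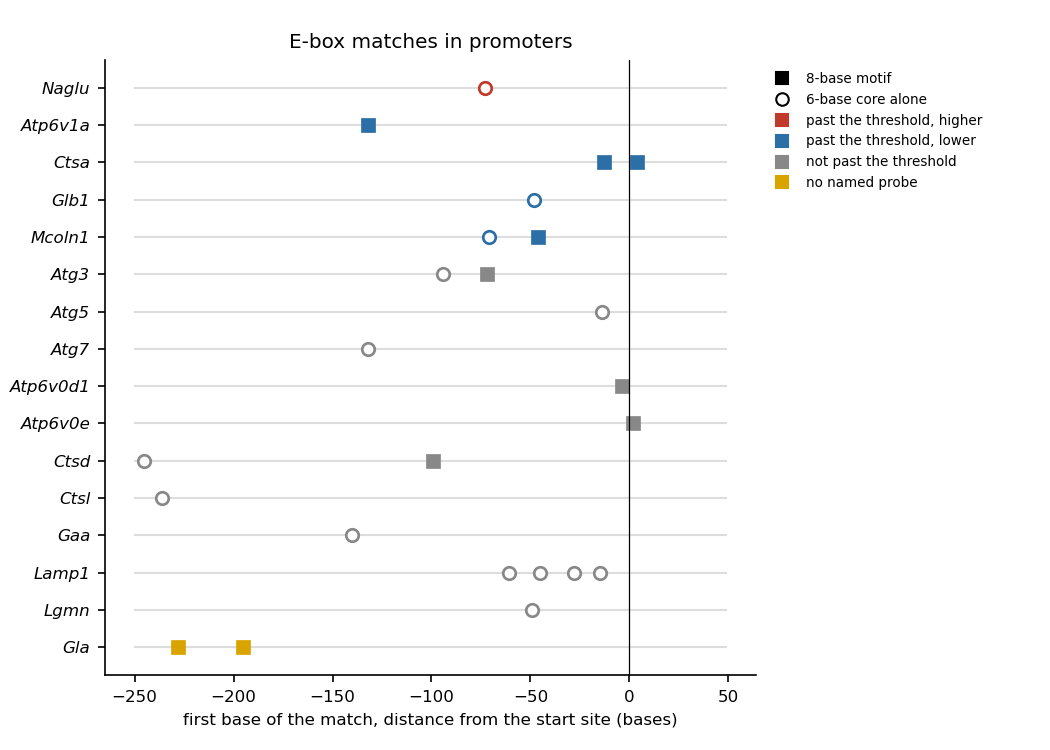
Position of each E-box match in the promoters of the 16 genes that hold one, as the distance in bases of its first base from the start site; filled squares are the 8-base motif, open circles the 6-base core alone, and colours give the call. Of the genes that were higher in posterior, Naglu alone appears, and Lamp1 holds 4 cores without the longer motif.

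Levels below are normalized log2 intensities, given for posterior replicates 1, 2 and 3 and then for anterior replicates 1, 2 and 3. Folds are the power of 2 of the log2 difference, and SE is the standard error of the fit. Brightness also depends on the probe, so levels of different genes are not compared. The groups did not overlap in 23 of the 42 genes, against 5774 of all 9908 tested genes. A lack of overlap is therefore common in these data and not particular to a gene named here. Counts by role and by list below stand beside 25.9% higher and 21.5% lower among all tested genes, and no list was tested as a set.

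Among the 17 tested hydrolases, 6 were higher in posterior (35.3%), 3 were lower (17.6%) and 8 did not pass. Their median log2 difference was 0.01. Ctsa encodes cathepsin A, a carboxypeptidase that also protects the β-galactosidase of Glb1 and the sialidase of Neu1 in one complex. Ctsa lay at 7.77, 7.42 and 7.14 in posterior and at 9.55, 9.61 and 9.54 in anterior. The groups were far apart, 4.37-fold lower in posterior (log2 -2.13, SE 0.17, adjusted p = 3.41e-05), while averaging its probes gave a log2 difference of -1.24. Glb1 lay at 8.50, 8.49 and 8.73 in posterior and at 10.11, 10.23 and 10.19 in anterior, without overlap. It was 3.04-fold lower (log2 -1.60, SE 0.13, adjusted p = 3.92e-05). The third enzyme of the complex moved the other way. Neu1, singled out after its value was seen, lay at 9.37, 8.75 and 9.36 in posterior and at 8.40, 8.58 and 8.73 in anterior, 1.51-fold higher (log2 0.59, SE 0.20, adjusted p = 0.0385). Posterior replicate 2 of Neu1 lay just above the highest anterior array. This call was lost without anterior replicate 1 (adjusted p = 0.125) or 2 (0.0689), without posterior replicate 1 (0.120) or 3 (0.123), with median scaling (0.0537) and without the detection filter (0.109), while those of Ctsa and Glb1 held in all 16 alternatives.

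Hexa, whose product is a subunit of β-hexosaminidase and degrades gangliosides, was lower on every posterior array. It lay at 8.55, 8.60 and 8.57 in posterior and at 9.61, 9.86 and 9.60 in anterior, 2.17-fold lower (log2 -1.12, SE 0.13, adjusted p = 0.000279). Ctsh, the gene of the aminopeptidase cathepsin H, was detected on all posterior arrays and on no anterior array. Its level was 6.42, 6.09 and 6.06 in posterior and 4.58, 4.50 and 4.50 in anterior. Against the lowest detected signals Ctsh was at least 2.57-fold higher in posterior (adjusted p = 5.02e-05). Since Ctsh entered the test only because posterior arrays detected it, its direction was set by the detection filter. It is the only one of the 42 genes that no anterior array detected.

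Naglu and Lipa, an enzyme gene of heparan sulfate breakdown and the gene of the acid lipase that frees cholesterol, were both higher in posterior. Naglu lay at 6.10, 6.07 and 6.41 in posterior and at 5.07, 5.52 and 4.72 in anterior, where 2 of 3 arrays detected it, 2.13-fold higher (log2 1.09, SE 0.21, adjusted p = 0.00373). Lipa lay at 6.33, 6.49 and 6.28 in posterior and at 5.01, 5.50 and 5.39 in anterior, 2.09-fold higher (log2 1.07, SE 0.16, adjusted p = 0.00109). Neither pair of groups overlapped. Without background correction the log2 difference of Lipa was 0.59 and that of Naglu 0.56. Gusb, the β-glucuronidase gene, was 1.77-fold higher (log2 0.82, SE 0.15, adjusted p = 0.00279), and Ctsb, the cysteine protease cathepsin B, 1.66-fold higher (log2 0.74, SE 0.20, adjusted p = 0.0170). The Ctsb call was lost with median scaling (adjusted p = 0.0584), without anterior replicate 1 (0.0640) or posterior replicate 2 (0.0633) and without the detection filter (0.0604).

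The groups overlapped for the 3 brightest hydrolase genes that did not pass. Man2b1, the lysosomal α-mannosidase gene, lay at 9.17, 8.90 and 9.01 in posterior and at 9.21, 9.36 and 9.04 in anterior, with overlap (log2 -0.18, 95% interval -0.51 to 0.15). Lgmn, the gene of the protease legumain, lay at 8.72, 8.50 and 8.36 in posterior and at 8.72, 8.78 and 8.63 in anterior (log2 -0.18, 95% interval -0.51 to 0.15). Gaa, the acid α-glucosidase gene, lay at 8.67, 8.44 and 8.62 in posterior and at 8.49, 8.72 and 8.49 in anterior (log2 0.01, 95% interval -0.31 to 0.33). For Gaa a difference of 2-fold lies outside the interval in either direction. Among the other protease genes, Ctsc had a log2 difference of -0.41, Ctsd of -0.33, Tpp1 of -0.23, Ctsl of 0.11 and Ctsz of 0.26. The groups of Ctsd and of Ctsz did not overlap, but adjusted p was 0.0793 and 0.146.

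**Figure D3:**
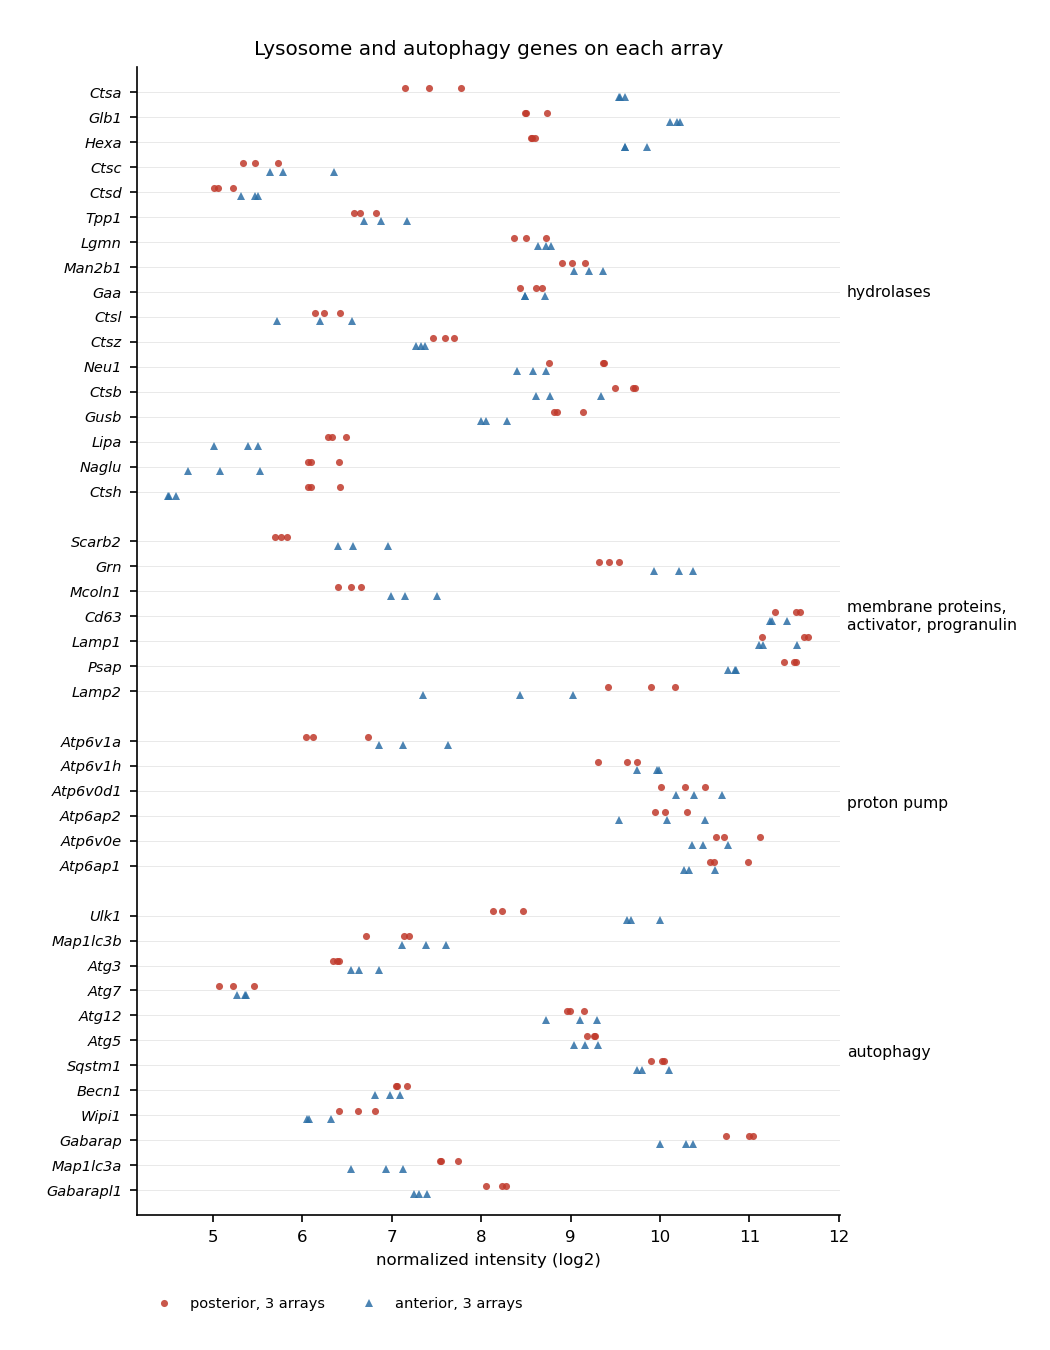
Normalized log2 intensity of each of the 42 genes on each array, red circles for the 3 posterior and blue triangles for the 3 anterior arrays, by role. The Ctsa, Glb1, Hexa and Ulk1 circles lie clear to the left of their triangles, the Ctsh circles clear to the right, and the anterior triangles of Lamp2 are spread from 7.35 to 9.03.

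Of the 7 genes of membrane proteins, the saposin precursor and progranulin, 2 were higher in posterior, 3 were lower and 2 did not pass. Lamp2, whose product lines the lysosomal membrane and serves chaperone-mediated autophagy, lay at 10.16, 9.90 and 9.42 in posterior and at 8.43, 7.35 and 9.03 in anterior. The groups did not overlap, but anterior varied widely, with an SD of 0.85, the largest of the 42 genes, against a median SD of 0.19 in that group. Lamp2 was 2.94-fold higher (log2 1.56, SE 0.39, adjusted p = 0.0116), a call lost without the detection filter (adjusted p = 0.0765). Lamp1, the gene of its close relative, lay at 11.61, 11.66 and 11.15 in posterior and at 11.11, 11.53 and 11.15 in anterior, with overlap (log2 0.21, 95% interval -0.22 to 0.64). Cd63, a tetraspanin gene of late endosomes and lysosomes, lay at 11.52, 11.57 and 11.29 in posterior and at 11.23, 11.43 and 11.25 in anterior (log2 0.15, 95% interval -0.17 to 0.47). Whether Lamp2 differed more than Lamp1 was not tested.

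Psap encodes prosaposin, from which the activators of sphingolipid hydrolases are cut, and it varied little within a group. It lay at 11.50, 11.52 and 11.39 in posterior and at 10.84, 10.76 and 10.86 in anterior, 1.57-fold higher (log2 0.65, SE 0.13, adjusted p = 0.00345). Scarb2, whose product carries glucocerebrosidase to the lysosome, lay at 5.69, 5.83 and 5.76 in posterior and at 6.57, 6.96 and 6.40 in anterior, 1.84-fold lower (log2 -0.88, SE 0.17, adjusted p = 0.00327). Grn, the progranulin gene, lay at 9.54, 9.31 and 9.43 in posterior and at 10.21, 10.37 and 9.93 in anterior, 1.67-fold lower (log2 -0.74, SE 0.16, adjusted p = 0.00530). The calcium channel gene Mcoln1, which carries the 8-base motif shown above, was lower as well. It lay at 6.66, 6.55 and 6.39 in posterior and at 7.14, 7.51 and 6.99 in anterior, 1.60-fold lower (log2 -0.68, SE 0.17, adjusted p = 0.0112). With arrays scaled to a common median these 4 calls were lost, with adjusted p = 0.0653 for Psap, 0.0976 for Scarb2, 0.0692 for Grn and 0.319 for Mcoln1.

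Of the 6 proton pump genes, 1 was lower in posterior and 5 did not pass. Atp6v1a, the gene of the V1 subunit that splits ATP, lay at 6.12, 6.04 and 6.73 in posterior and at 6.86, 7.12 and 7.63 in anterior, 1.87-fold lower (log2 -0.91, SE 0.25, adjusted p = 0.0175). The highest posterior array lay just below the lowest anterior one. The call was lost with median scaling (adjusted p = 0.124), without the detection filter (0.0802) and without posterior replicate 1 (0.0552) or 2 (0.0724). Atp6v0e, a small V0 subunit gene, lay at 11.12, 10.72 and 10.63 in posterior and at 10.48, 10.76 and 10.36 in anterior (log2 0.29, 95% interval -0.12 to 0.69). The accessory subunit gene Atp6ap1 lay at 10.56, 10.98 and 10.61 in posterior and at 10.27, 10.61 and 10.32 in anterior (log2 0.31, 95% interval -0.07 to 0.70). Atp6v0d1, which encodes a V0 subunit, lay at 10.51, 10.28 and 10.02 in posterior and at 10.38, 10.70 and 10.17 in anterior (log2 -0.15, 95% interval -0.57 to 0.28). In these 3 genes the groups overlapped. Atp6v1h and Atp6ap2 had log2 differences of -0.34 and 0.06. The dimmer probes of Atp6ap2 gave -0.36, -0.35 and -0.31, those of Atp6v0d1 -0.15, -0.50 and -0.50, and that of Atp6v1h 0.14, none past the threshold.

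A further 12 pump genes that are not among the 42 were tested, of which 2 were higher and 4 lower. Tcirg1, a V0 subunit gene known from osteoclasts, lay at 7.07 ± 0.36 in posterior and 5.91 ± 0.10 in anterior (SD, n = 3 each), 2.23-fold higher (adjusted p = 0.00155 in limma), and the V0 gene Atp6v0e2 was 1.71-fold higher (adjusted p = 0.00190). Atp6v1c1 lay at 7.71 ± 0.19 in posterior and 8.83 ± 0.07 in anterior (SD, n = 3 each), 2.17-fold lower (adjusted p = 0.000433 in limma), and Atp6v1d was 1.67-fold lower (adjusted p = 0.00507). Counted by sector of the pump, a split made after the values were seen, V1 genes had 5 lower and 0 higher among 9 (median log2 -0.47) and V0 genes 2 higher and 0 lower among 7 (median log2 0.29), where 21.5% of all tested genes were lower and 25.9% higher. The 5 were Atp6v1a, Atp6v1c1, Atp6v1d, Atp6v1b2 (log2 -0.67) and Atp6v1g1 (log2 -0.47). The difference between the sectors was not tested. Of the V1 genes 3 were lower without posterior replicate 1 or 2 and with median scaling. Another 2 V1 genes were higher without anterior replicate 3, with trend and robust variances, with array weights and with the mean of a gene's probes. With that mean the median log2 of the V0 genes was 0.13 and that of the V1 genes -0.47. Among probes detected on all 6 arrays, 5 of 7 V1 genes were lower and 0 higher (median log2 -0.67). The V1 genes Atp6v1c2 and Atp6v1g2, at log2 0.43 and 0.42 and not past the threshold in the main fit, were dim and each detected on 1 of 3 anterior arrays.

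Of the 12 autophagy genes, 4 were higher in posterior, 1 was lower and 7 did not pass. The gene that was lower, Ulk1, encodes the kinase that starts autophagy. Ulk1 lay at 8.13, 8.46 and 8.24 in posterior and at 9.68, 10.00 and 9.64 in anterior, 2.82-fold lower (log2 -1.50, SE 0.16, adjusted p = 0.000145). A further Ulk1 probe gave a log2 difference of -1.56 (adjusted p = 9.30e-05). Its call held in all 16 alternatives.

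Of the genes of LC3 and GABARAP proteins, which are attached to the autophagosome membrane, Gabarapl1, Gabarap and Map1lc3a were higher in posterior and Map1lc3b did not pass. Gabarapl1 lay at 8.05, 8.23 and 8.28 in posterior and at 7.30, 7.24 and 7.40 in anterior, 1.83-fold higher (log2 0.87, SE 0.13, adjusted p = 0.00102). Gabarap lay at 10.996, 10.73 and 11.04 in posterior and at 10.00, 10.37 and 10.29 in anterior, 1.63-fold higher (log2 0.70, SE 0.16, adjusted p = 0.00685). Map1lc3a lay at 7.54, 7.74 and 7.55 in posterior and at 6.94, 7.12 and 6.54 in anterior, 1.67-fold higher (log2 0.74, SE 0.17, adjusted p = 0.00893). In none of the 3 did the groups overlap. Map1lc3b, the widely used marker of autophagosomes, overlapped between the groups, with a log2 difference of -0.35 (95% interval -0.78 to 0.07). The call of Gabarap was lost with median scaling (adjusted p = 0.0649) and that of Map1lc3a with the mean of its probes (adjusted p = 0.0530).

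Wipi1, whose product binds the lipid that marks the forming autophagosome, lay at 6.41, 6.81 and 6.62 in posterior and at 6.05, 6.07 and 6.32 in anterior, 1.38-fold higher (log2 0.47, SE 0.16, adjusted p = 0.0403). It passed narrowly, and its call was lost in 7 of the 16 alternatives, among them each of 4 that left out 1 array, with adjusted p = 0.119 and 0.0915 without anterior replicates 1 and 2 and 0.147 and 0.0971 without posterior replicates 2 and 3. The cargo receptor gene Sqstm1, which TFEB is known to activate, lay at 10.04, 10.02 and 9.90 in posterior and at 9.75, 10.10 and 9.80 in anterior (log2 0.10, 95% interval -0.23 to 0.44). Atg5 and Atg12, whose products are joined into one conjugate, also overlapped between the groups. Atg5 lay at 9.26, 9.28 and 9.18 in posterior and at 9.16, 9.04 and 9.30 in anterior (log2 0.07, 95% interval -0.23 to 0.37). Atg12 lay at 8.96, 8.99 and 9.15 in posterior and at 8.73, 9.11 and 9.29 in anterior (log2 -0.01, 95% interval -0.40 to 0.38). Becn1 of the lipid kinase complex had a log2 difference of 0.13, and the conjugation enzyme genes Atg3 and Atg7 had -0.30 and -0.08.

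Several genes were read by more than 1 probe, which tests the values within the arrays. Of the 70 tested probes of the 42 genes, 31 (44.3%) passed, against 42.6% of all tested probes. Among 16 genes with several tested probes, all probes passed in the same direction in 5 (Ctsa, Glb1, Gusb, Psap and Ulk1), some passed in 4, none in 7, and 0 genes had calls of opposite sign. The 4 probes of Gusb gave log2 differences of 0.63 to 0.82. The 3 probes of Ctsa were all lower, at -2.13 and -1.01 for the brighter 2, while the dimmest, which no posterior array detected, was at least 1.39-fold lower. That dimmest probe entered the test through anterior arrays alone and could pass only as lower, so its agreement with the brighter 2 is no check. For Lamp2 4 of 5 probes passed, at 1.56, 1.17, 0.87 and 0.60, and the dimmest, which 1 of 3 anterior arrays detected, gave -0.07 (adjusted p = 0.812). The probes at 1.56 and 1.17 are annotated to the same transcript record, those at 0.87 and 0.60 to another, and the dimmest to a further record. The Lamp2 probes need not read the same transcripts. On each of the 4 passing Lamp2 probes anterior replicate 2 was the lowest array. The dimmer probe of Map1lc3a gave 0.05 (adjusted p = 0.853), that of Lipa 0.58 (adjusted p = 0.0660), and the other probes of Wipi1 0.23 and 0.34.

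**Figure D4:**
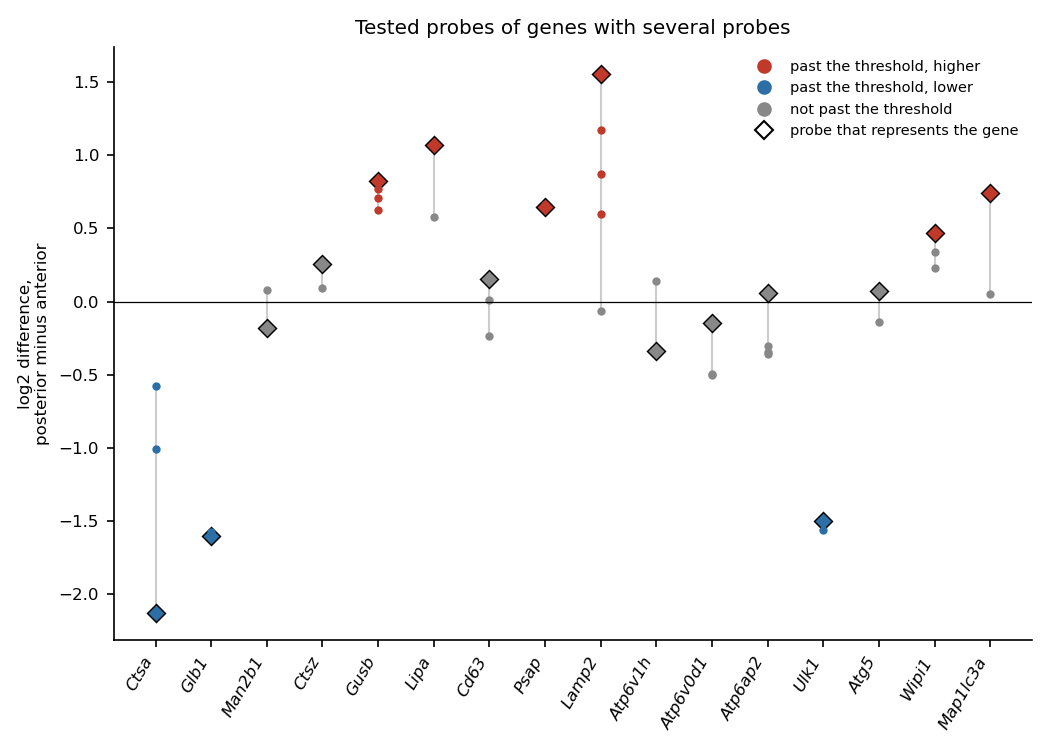
Log2 difference, posterior minus anterior, of every tested probe of the 16 genes with more than 1 tested probe; the diamond is the probe that represents the gene, colours give the call, and the grey line joins the probes of a gene. The probes of Gusb, Psap, Glb1 and Ulk1 lie close together, and those of Lamp2 run from -0.07 to 1.56. The dimmest Ctsa probe, not detected in posterior, is drawn at its fitted value.

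Within a group the 42 genes varied about as much as others. The median SD was 0.15 in posterior and 0.19 in anterior, against 0.16 and 0.20 over all tested genes. Anterior replicate 2 stood highest of its group in 26 of the 42 genes and lowest in 5. The 5 were Lamp2, Psap, Atp6ap2, Gabarapl1 and Atg5. Without this array 10 genes were higher and 8 lower.

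Further genes of the pathway, from 6 lists made by name, changed in both directions. Of 133 tested genes outside the 42, 24 were higher and 25 lower in posterior (36.8%, against 47.4% of all tested genes). Among other hydrolases 8 of 22 were higher and 2 lower (median log2 0.04), or 36.4% and 9.09%, against 25.9% and 21.5% of all tested genes. Manba, the β-mannosidase gene, lay at 7.49, 7.51 and 7.67 in posterior and at 10.72, 10.73 and 10.95 in anterior, 9.46-fold lower (log2 -3.24, SE 0.14, adjusted p = 1.53e-06). Smpd1, the acid sphingomyelinase gene, was 3.97-fold higher (log2 1.99, SE 0.13), and the hyaluronidase gene Hyal2 2.80-fold. The arylsulfatase gene Arsb was at least 2.43-fold higher. No anterior array detected Arsb, so it could enter the test, and the count of 8, only as higher.

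Other membrane and fusion genes had 7 of 26 higher and 3 lower (median log2 0.08). Laptm5, a lysosomal membrane protein gene best known from blood cells, lay at 8.08, 7.73 and 7.92 in posterior and at 10.81, 11.14 and 11.70 in anterior, 9.88-fold lower (log2 -3.30, SE 0.23, adjusted p = 1.40e-05). Its relative Laptm4a was 2.42-fold higher, as were Sidt2 (2.66-fold) and the channel gene Tpcn1 (2.18-fold). Genes that deliver enzymes to the lysosome had 2 of 19 higher and 2 lower (median log2 0.05). The sorting receptor gene Sort1 lay at 10.86, 11.11 and 11.20 in posterior and at 7.91, 8.41 and 8.45 in anterior, 6.97-fold higher (log2 2.80, SE 0.18, adjusted p = 1.09e-05). The adaptor gene Ap3b1 was 1.61-fold lower, Gnptab, which starts the mannose 6-phosphate tag, 1.45-fold lower, and the adaptor gene Ap1b1 1.41-fold higher, and these 3 calls were lost with median scaling. Gnptab also lost its call without the detection filter (adjusted p = 0.0664), without anterior replicate 2 (0.0809) or 3 (0.0724) and without posterior replicate 1 (0.103) or 2 (0.101). Ap1b1 also lost its call without anterior replicate 1 (adjusted p = 0.0569) or posterior replicate 2 (0.0543). The mannose 6-phosphate receptor genes Igf2r and M6pr, named after their values were seen, had log2 differences of -0.19 and 0.06 and did not pass.

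Genes of nutrient signalling at the lysosome had 1 of 22 higher and 6 lower, with a median log2 difference of -0.20. These are 4.55% and 27.3%, against 25.9% and 21.5% of all tested genes, and 31.8% passed, against 47.4% of all. Deptor, an inhibitor gene of the mTOR kinase, lay at 6.03 ± 0.11 in posterior and 7.43 ± 0.33 in anterior (SD, n = 3 each), 2.65-fold lower, and the GTPase gene Rragb was 2.59-fold lower (adjusted p = 0.000433 and 0.000257 in limma). Tsc1 and Flcn were 1.58-fold and 1.41-fold lower, and each lost its call in 7 of the 16 alternatives, median scaling among them. Flcn did so without anterior replicate 1 (adjusted p = 0.0650) or 2 (0.0997) and posterior replicate 2 (0.133) or 3 (0.0831). Tsc1 did so without anterior replicate 1 (adjusted p = 0.0813) or 2 (0.0728) and posterior replicate 1 (0.0640) or 3 (0.0905). With median scaling 2 of these genes were lower and 0 higher. Other autophagy genes had 4 of 32 higher (12.5%) and 8 lower (25%), with a median log2 of -0.19, and 4 lower with median scaling. Atg13, whose product joins ULK1 in the starting complex, lay at 7.49, 7.69 and 7.52 in posterior and at 8.68, 8.84 and 8.55 in anterior, 2.18-fold lower (log2 -1.13, SE 0.14, adjusted p = 0.000340). Atg9b and Plekhm1 were 2.07-fold and 2.01-fold lower, and Vmp1, needed to form autophagosomes, 1.94-fold higher.

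**Figure D5:**
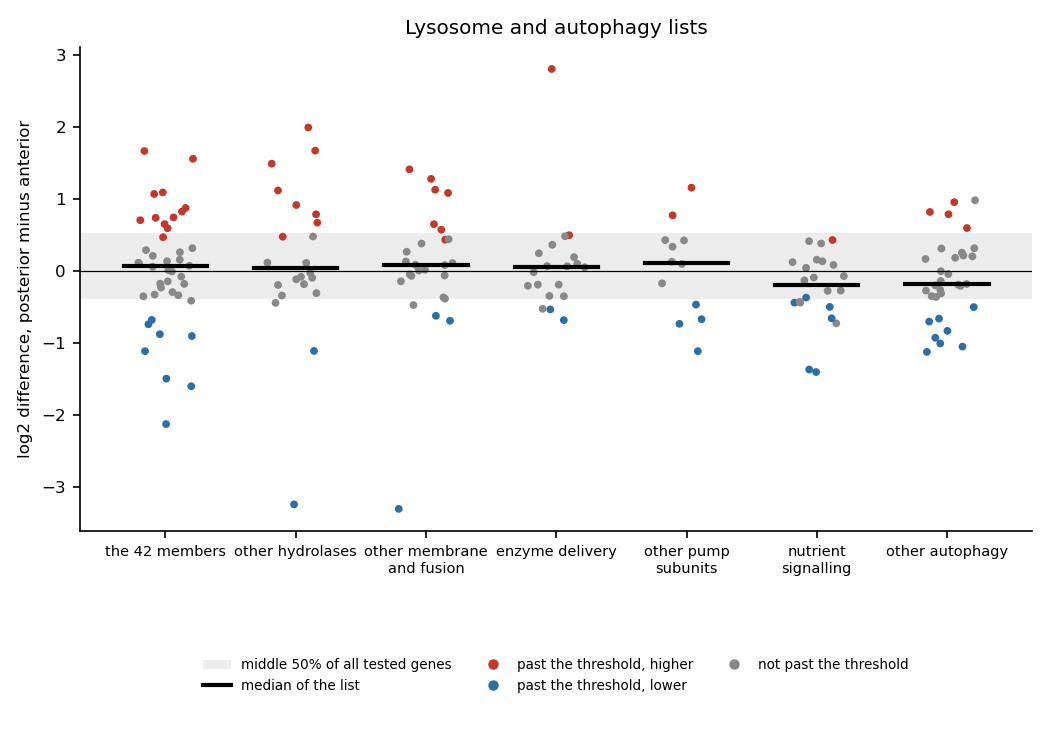
Log2 difference, posterior minus anterior, of the 42 genes and of the tested genes of 6 further lists; each point is a gene, coloured by its call, the black bar is the median of the list and the shaded band the middle 50% of all tested genes. The medians lie between -0.20 and 0.11, with Laptm5, Manba and Sort1 farthest from 0.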

How the data were processed

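Total RNA of 6 samples was turned into labelled cRNA with an Illumina amplification kit, per the labels' protocols, and read on 1-colour bead arrays. The table deposited by the authors gives a linear intensity of 45281 probes per array, neither background subtracted nor normalized, and a detection p-value for each, per the file headers. The authors' deposited log2 values cover 18312 probes and equal quantile-normalized log2 intensities to within 5e-09; limma is named, with no version, per the submitters' processing notes. For arrays, the number of replicates limits the precision.

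The function neqc (limma 3.58.1, R 4.3.3) corrected and normalized the intensities (normexp background from detection p-values, offset of 16, log2, quantile). The offset shrinks the changes of dim probes. Probes detected (p under 0.05) on at least 3 of 6 arrays were fitted with lmFit and eBayes, and p-values of all 18242 were adjusted together (Benjamini-Hochberg, threshold 0.05). The brightest tested probe by mean level stands for a gene. Where no array of a group detected a probe, the fold is a bound, taken against each array's lowest detected signal or the probe's own signal if that is higher. Gene names came from the platform annotation, which covers the authors' probes alone: 15550 had 1 symbol, 9 several and 2753 none.

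The genes and lists were chosen with earlier results of these data known. All 42 genes are named; values on every array are given, in each role, for up to 6 genes past the threshold with the largest change and up to 3 others with the highest level, and up to 4 genes past the threshold with the largest change are named from each further list. Atp6v1b2, Atp6v1g1, Npc1, Igf2r and M6pr fall outside this rule and were named after their values were seen. Promoters came from RefSeq; exact matches were searched in Python 3.11.15, and figures drawn with matplotlib 3.10.9. A planned comparison of LC3 and GABARAP proteins was not made. The steps were tested on simulated data.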

Additional observations from a re-analysis of the deposited data

How the results depend on the processing

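The 16 alternatives changed the background correction, the offset, the normalization, the detection filter, the probe rule, the variance model, the array weights or the pairing, used the authors' values, or left out 1 array; slide as a block was not run, since the files used here name no slide. The number of the 42 genes that were higher ran from 8 to 12, against 12, and of those that were lower from 4 to 9, against 8; the 4 came with median scaling, where 3532 genes passed and 72.1% of calls were higher, against 54.7%. Leaving out 1 array gave 9 to 12 higher and 7 to 8 lower, and 5991 to 7679 probes and 3699 to 4653 genes past the threshold in the whole table. The median log2 difference of the 42 genes ran from -0.02 to 0.15. Of the 20 genes past the threshold 9 kept call and direction in every alternative that could test them: Ctsa, Ctsh, Gusb, Hexa, Glb1, Lipa, Naglu, Gabarapl1 and Ulk1. For Ctsh, which no anterior array detected, the detection filter set the direction in the main fit. The other 11 of the 20 genes lost the call in at least 1 alternative. None of the 42 changed sign while past the threshold, and 10 of the 22 others changed sign in some alternative without passing. Ctsd passed as lower without the detection filter (adjusted p = 0.0490) and Atg3 with array weights (0.0476). Of 49 further pathway genes past the threshold 29 kept the call in every alternative. Npc1, higher at log2 0.43, had a log2 difference of -0.29 with the mean of its probes, without passing, and the cause was not tested. Samples of the same number correlated at 0.29, 0.16 and -0.08 in their deviations from the group means, and samples of unlike number at -0.413 to 0.335. Deviations within a group are tied to each other, so these values cannot tell whether the numbers pair the samples. With the replicate block 12 of the 42 genes were higher and 8 lower, as without it. Genes without a named probe, and changes smaller than the intervals given, could not be judged at this number of arrays.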
